A study of Caenorhabditis elegans with 6 samples.

Results

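The 10 genes described here encode proteins of the thick and thin filaments of muscle in the nematode Caenorhabditis elegans. They were taken by sequence name from a table of 19512 genes, and all 10 were found and passed the filter on low counts, which left 11474 genes for testing. The set held 4 myosin heavy chain genes (unc-54, myo-3, myo-1 and myo-2), paramyosin (unc-15), 3 myosin light chain genes (mlc-1, mlc-2 and mlc-3), tropomyosin (lev-11) and a troponin I (unc-27). Messenger RNA was taken from whole wild-type N2 worms at the L4 larval stage, with poly-A enrichment and sequencing of 3-prime ends (3SEQ). Per the labels, 3 cultures (letters A, B and C) were controls and 3 were elt-2 RNAi. By the study's methods, controls were fed an empty vector from the L1 stage. The others were fed bacteria making double-stranded RNA against elt-2, a GATA transcription factor gene of the intestine. Each culture began with about 10000 synchronized larvae and was collected after 28 hours. Values are listed in the order A, B, C within each label. All 6 cultures ate RNAi bacteria, and no mutation or transgene was named. The samples were whole animals, so a different share of muscle tissue and a different RNA level in muscle cells cannot be told apart.

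Muscle shortens when myosin heads on the thick filaments pull on actin in the thin filaments. In the worm the body wall muscle is obliquely striated, and its thick filaments carry the heavy chains MYO-3, in the middle of the filament, and UNC-54, which forms most of its length. The pharynx, the pump that swallows bacteria, builds its filaments from MYO-1 and MYO-2 instead. Paramyosin forms the core of the thick filament. Regulatory and alkali light chains sit on the neck of each myosin head, and tropomyosin with the troponins lets calcium switch the thin filament on.

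Every result has to be read beside the state of the libraries. Control A was shallowest at 16568515 counts and elt-2 RNAi C deepest at 35047530, and each library labelled elt-2 RNAi was deeper than each labelled control. Levels are given as counts in each 1000000 (CPM) of a library size multiplied by its TMM factor, which ran from 3.45 in control A down to 0.492 in elt-2 RNAi C, so scaling had a large part in any level compared between libraries. The target went against its label. elt-2 (C33D3.1) had 4.08, 1.53 and 3.31 CPM across the vector controls against 33.4, 5.81 and 178 CPM under the elt-2 RNAi label, a log2 fold change of 4.60 ± 1.16 (SE, adjusted p 0.0395 in edgeR). Groups are therefore named as the libraries were labelled, and no direction below is read as an effect of lower elt-2. Nothing in the labels said whether the letters marked a shared day or batch.

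The filament genes were among the more abundant transcripts. All 10 together took 0.368%, 0.327% and 0.423% of the counts across the vector controls, and 0.382%, 0.361% and 0.319% under the elt-2 RNAi label. The 95% Wilson interval of each share was at most 0.00292 percentage points to either side, and such intervals cover counting error only. The share of the whole set thus ranged from 0.319% to 0.423%, beyond counting error, and its groups overlapped. mlc-2 alone took 0.148% to 0.183% of the counts, so the sum does not describe each gene. unc-27, for example, ranged from 0.0443% to 0.152%. Scaled with TMM, the same sums were 1067, 2396 and 4335 CPM in the labelled controls and 5468, 5673 and 6492 CPM under the elt-2 RNAi label. The unscaled share and the climbing scaled sum come from the same counts and differ by the TMM factors alone.

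Levels were compared between genes as TMM-scaled CPM for each kilobase of the longest annotated transcript, averaged over the 6 libraries. The regulatory light chain mlc-2 was highest at 3127, followed by unc-27 at 1002, mlc-3 at 459, lev-11 at 140, unc-54 at 57.0, mlc-1 at 45.4, unc-15 at 44.1, myo-3 at 5.84, myo-2 at 3.67 and myo-1 at 2.03 CPM per kilobase. The order held in all 6 libraries for 6 of the 9 neighbouring pairs. For unc-27 against mlc-3, unc-54 against mlc-1 and mlc-1 against unc-15 it held in 4 of 6. By this measure these neighbours were not separated beyond the spread of the libraries. Reads were drawn from 3-prime ends, and the study treats such counts as insensitive to gene size. Without division by length, unc-15 (151 CPM) lay above mlc-1 (52.4 CPM) in 6 of 6 libraries. So did unc-54 (354 CPM), which was also above lev-11 (215 CPM) in the mean and in 5 of 6 libraries. Whether mlc-1 was separated from unc-54 and unc-15 thus depended on the division by length. If such counts are insensitive to gene size, as the study states, the undivided order applies, with both above mlc-1.

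For the set as a whole, all 10 log2 fold changes were positive under TMM scaling, against 46.8% of all tested genes. Their median was 0.83, against -0.12 for all tested genes. edgeR called 1 of the 10 higher (myo-2) and 0 lower, and 3 had an unadjusted p under 0.05. Over all tested genes 13.0% were called higher, 15.9% lower and 28.9% in either direction. The labelled groups did not overlap, all in the higher direction, for 5 of the 10, against 22.5% of tested genes higher, 24.2% lower and 46.7% in either direction. Abundance has to be considered beside these counts. Of the 2957 tested genes with a mean at least that of myo-1, 77.3% had a positive log2 fold change, their median was 0.84, and 46.8% had groups that did not overlap in the higher direction. edgeR called 23.9% of these 2957 genes higher. The filament genes' median of 0.83 was thus close to that of all genes at or above their level. DESeq2 called 5 of the 10 (unc-54, myo-1, myo-2, mlc-2 and mlc-3, all higher), against 18.7% of all tested genes called higher and 16.0% lower by that tool. The DESeq2 share among genes at or above the level of myo-1 is not given here. edgeR called 0 without control A, where 3 had an unadjusted p under 0.05 and 9.01% of all tested genes were called higher.

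**Figure D1:**
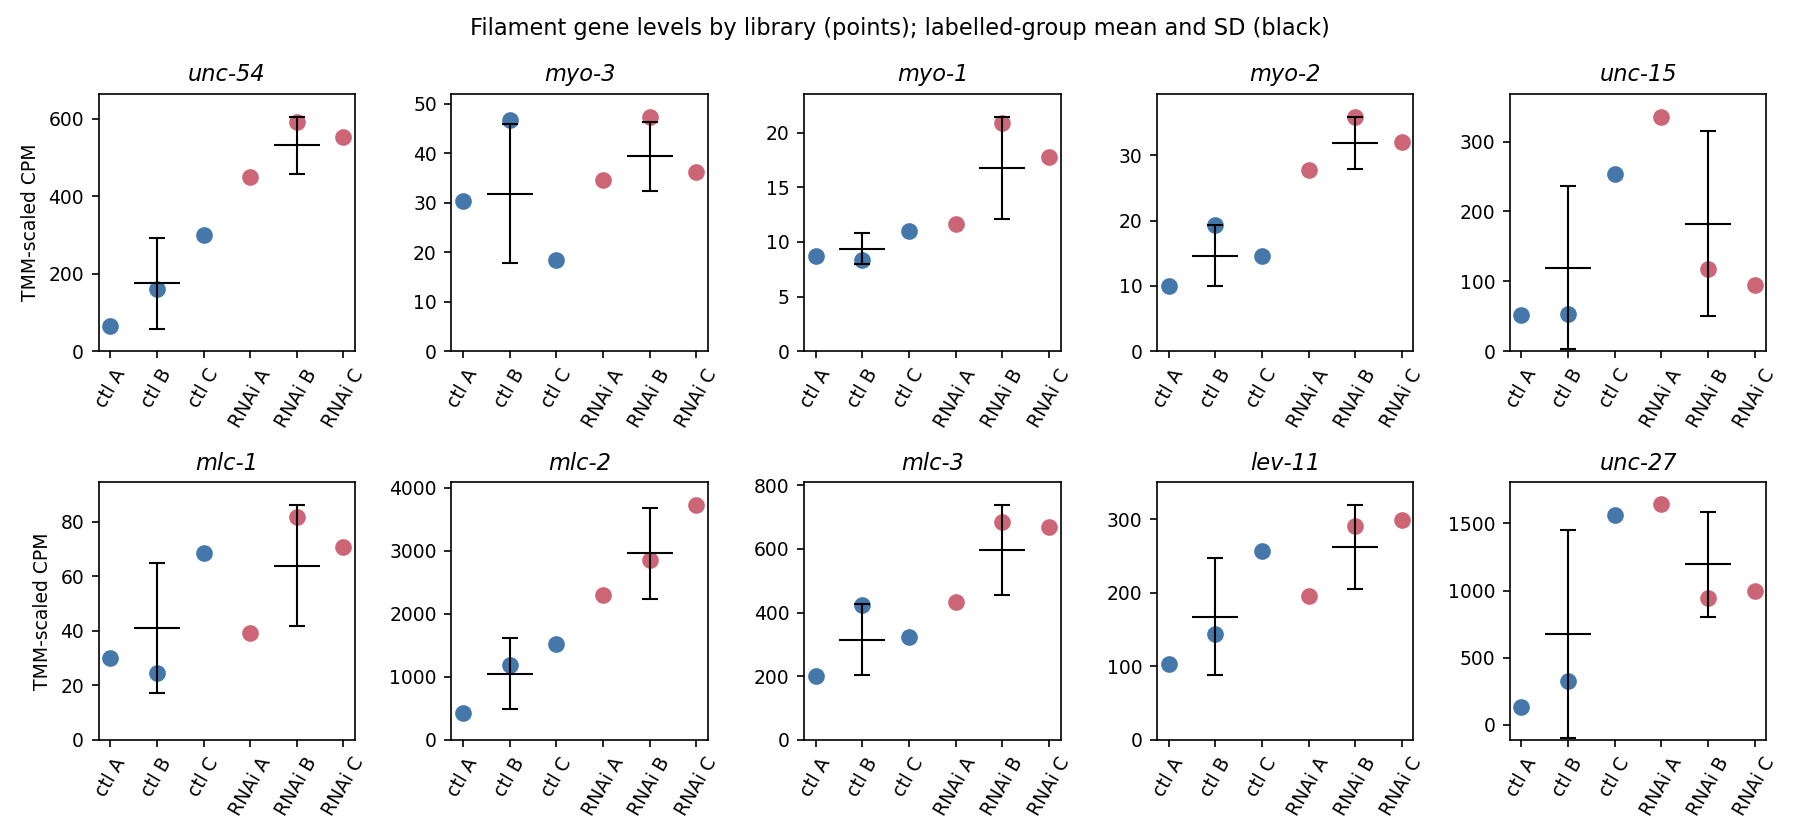
TMM-scaled CPM of the 10 filament genes in each library (blue, labelled control; red, labelled elt-2 RNAi), each panel with its own linear axis; black bars give the mean and SD of the 3 libraries of a labelled group. The groups do not overlap for unc-54, myo-1, myo-2, mlc-2 and mlc-3, while unc-15 and unc-27 are highest in control C and elt-2 RNAi A. With library size alone in place of TMM, 8 of the 10 fold changes turn negative.

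Direction depended on scaling. With library size alone, the study's own way of normalizing, the median of all tested genes moved to -1.76 and only unc-54 (0.38) and mlc-2 (0.19) stayed above 0, while 52.3% of all tested genes were called lower. With the top 3% of genes by abundance left out of the library size it moved to -0.65, and 9 of the 10 were positive, myo-3 (-0.21) being the exception. Relative to the median of all genes, the median filament gene was higher by 0.95, 1.24 and 0.98 under TMM and these 2 scalings. All 10 lay above that median each time. A scaling shifts all genes of a library alike, so such places are kept nearly by construction and add no separate evidence. Under TMM, all tested genes at or above the level of myo-1 had a median of 0.84, so lying above the median of all genes was common at these levels.

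**Figure D2:**
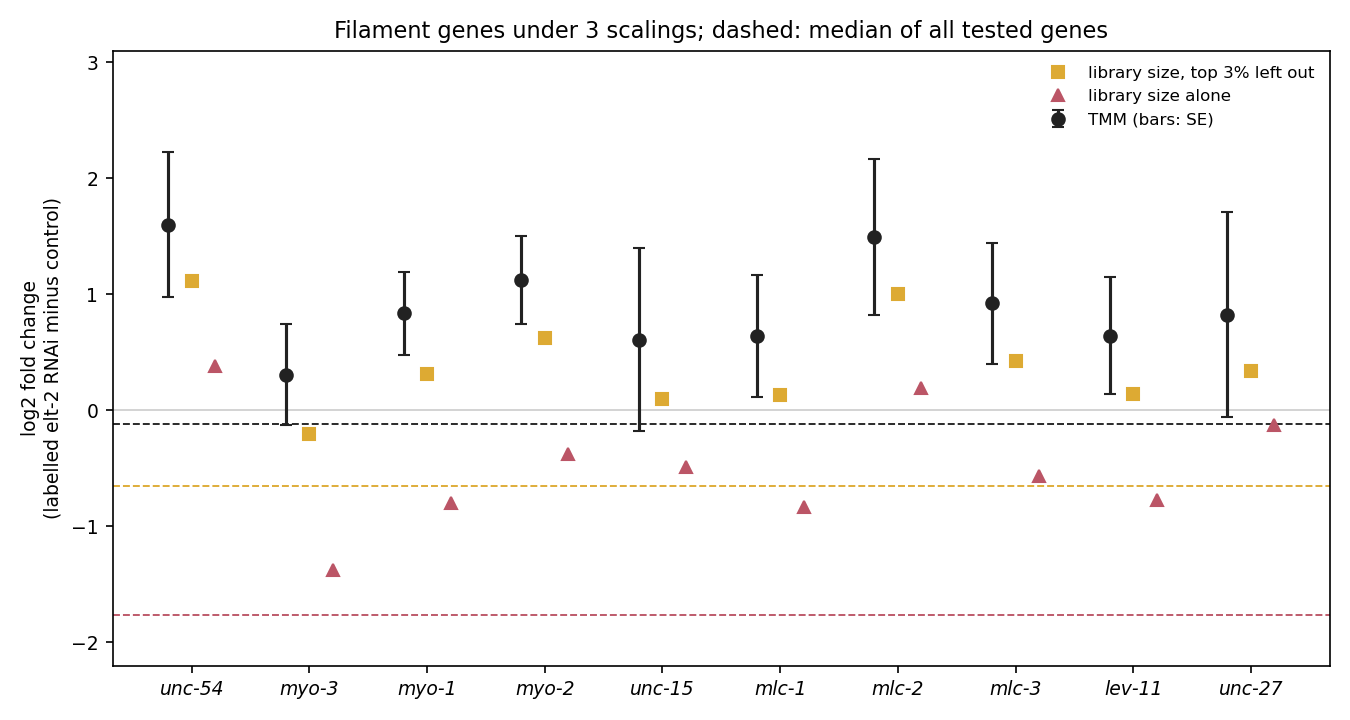
log2 fold change (labelled elt-2 RNAi minus control) of each filament gene under TMM scaling (black, bars SE), library size with the top 3% of genes by abundance left out (squares) and library size alone (triangles); dashed lines give the median of all tested genes under each. Each gene keeps its place above the matching dashed line, which is nearly by construction since a scaling shifts all genes of a library alike. With library size alone 8 of the 10 are negative, and myo-3 is also negative in the squares.

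The body wall heavy chains differed in their pattern over the libraries. unc-54 (F11C3.3, minus strand of WBcel235 chromosome I, 14855901 to 14863482), the major body wall myosin, had 66.1, 160 and 300 CPM across the vector controls and 450, 592 and 553 CPM under the elt-2 RNAi label. All 3 libraries labelled elt-2 RNAi lay above all 3 labelled controls, and the controls themselves were widely spread. Control libraries averaged 176 ± 118 CPM and the others 532 ± 73.2 CPM (SD, n = 3). This gave a log2 fold change of 1.60 ± 0.62 (SE, adjusted p 0.108 in edgeR) that missed the threshold of 0.10. Leaving out control C raised it to 2.33, which passed (adjusted p 0.0499 in edgeR). Leaving out control A lowered it to 1.08 (adjusted p 0.146), and the other 4 such fits did not pass either (adjusted p 0.183 to 0.265). myo-3 (K12F2.1, minus strand of chromosome V, 12226817 to 12234343), the minor body wall myosin, had 30.4, 46.6 and 18.5 CPM in the controls and 34.5, 47.3 and 36.3 CPM in the libraries labelled elt-2 RNAi. Its groups overlapped, with control B and elt-2 RNAi B highest and control C lowest, and the log2 fold change was 0.31 (SE 0.44, edgeR adjusted p 0.622). Scaled by library size alone, myo-3 was called lower instead, at -1.37 (edgeR adjusted p 0.0968), as were 52.3% of all tested genes, and it lay above their median of -1.76.

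The pharyngeal heavy chains were lower in level and closer to each other. myo-2 (T18D3.4, plus strand of chromosome X, 12468061 to 12475348) had 10.05, 19.4 and 14.5 CPM across the vector controls and 27.8, 35.8 and 32.0 CPM under the elt-2 RNAi label. The groups did not overlap. Means were 14.7 ± 4.68 against 31.9 ± 4.02 CPM (SD, n = 3), and myo-2 was the only filament gene called by edgeR, at a log2 fold change of 1.12 (SE 0.38, adjusted p 0.0788). That call was fragile. Among the 6 fits that each left out 1 library it held only without control B (adjusted p 0.0816), and in the other 5, without control A, control C or any library labelled elt-2 RNAi, adjusted p ran from 0.114 to 0.212. The log2 fold change of myo-2 was -0.38 with library size alone (edgeR adjusted p 0.624). myo-1 (R06C7.10, minus strand of chromosome I, 7258946 to 7267057) had 8.74, 8.39 and 11.04 CPM in the controls and 11.7, 20.9 and 17.8 CPM in the libraries labelled elt-2 RNAi, where elt-2 RNAi A lay just above control C. Its log2 fold change was 0.84 (SE 0.36, edgeR adjusted p 0.132), and -0.79 with library size alone.

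Ratios of counts within a library need no scaling between libraries, and the 4 heavy chain transcripts are of similar length, from 6.10 to 6.46 kilobases. The counts of myo-1 and myo-2 together were 19.5% and 13.4% of those of unc-54 and myo-3 in control A and B. They were 8.01% in control C and 8.14%, 8.87% and 8.44% under the elt-2 RNAi label. Control C therefore lay with the libraries labelled elt-2 RNAi, below all of them, and the labelled groups overlapped. On the log2 scale the ratio was -2.97 ± 0.64 in the controls and -3.56 ± 0.06 in the libraries labelled elt-2 RNAi (SD, n = 3), a difference of -0.59 that was smaller than the spread of the controls. Counts that entered the ratio were 5516 to 12226 for the body wall sum and 602 to 1084 for the pharyngeal sum.

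A larger shift lay inside the body wall pair. unc-54 had 2.17 and 3.43 counts for each count of myo-3 in control A and B, but 16.2 in control C and 13.0, 12.5 and 15.3 under the elt-2 RNAi label. As a share of all heavy chain counts, unc-54 took 57.3% and 68.3% in control A and B, against 85.1% to 87.2% in the remaining 4 libraries. myo-3 took 26.4% and 19.9% in control A and B and 5.37% to 6.80% in the others. The 4 shares have a common total, so a larger share of unc-54 leaves less for the other chains. Of the pharyngeal chains, myo-2 took 8.71% and 8.27% in control A and B and 4.21% to 5.30% elsewhere. myo-1 took 7.57% in control A, 3.58% in control B and 2.22% to 3.20% in the other 4. Its 95% Wilson intervals overlapped between control B (3.18% to 4.03%) and control C (2.84% to 3.61%). Counts of myo-2 over myo-1 were 1.15 and 2.31 in control A and B and 1.32 to 2.38 elsewhere, without that division. The widest 95% Wilson interval of these shares reached 1.19 percentage points to either side. For unc-54, myo-3 and myo-2 the division into 2 and 4 libraries was thus beyond counting error. It did not follow the labels, since control C sat with the libraries labelled elt-2 RNAi. The same 2 libraries stood apart in 4 of 6 epidermal marker genes, in opposite directions. This division was taken from the heavy chain shares, and the share of all tested genes that follow it is not given here. dpy-7, a cuticle collagen gene that did not pass the filter, had 12.7 and 16.9 CPM in control A and B and 0.127 to 0.348 CPM in the other 4 libraries. wrt-10, a hedgehog-related gene, had 17.6 and 8.999 CPM in control A and B and 0.116 to 0.594 CPM elsewhere. The cuticle collagen genes rol-6 and bli-1 were low there instead. rol-6 had 0.718 and 2.01 CPM in control A and B and 6.49 to 8.59 CPM in the rest, and bli-1 had 0.0350 and 0.160 against 0.471 to 0.920 CPM. Whether staging or tissue makeup had a part in the heavy chain shares was not tested. Built from myo-1 and myo-3 alone, the pharyngeal to body wall difference was 0.41 rather than -0.59, so its sign depended on which pair was used.

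**Figure D3:**
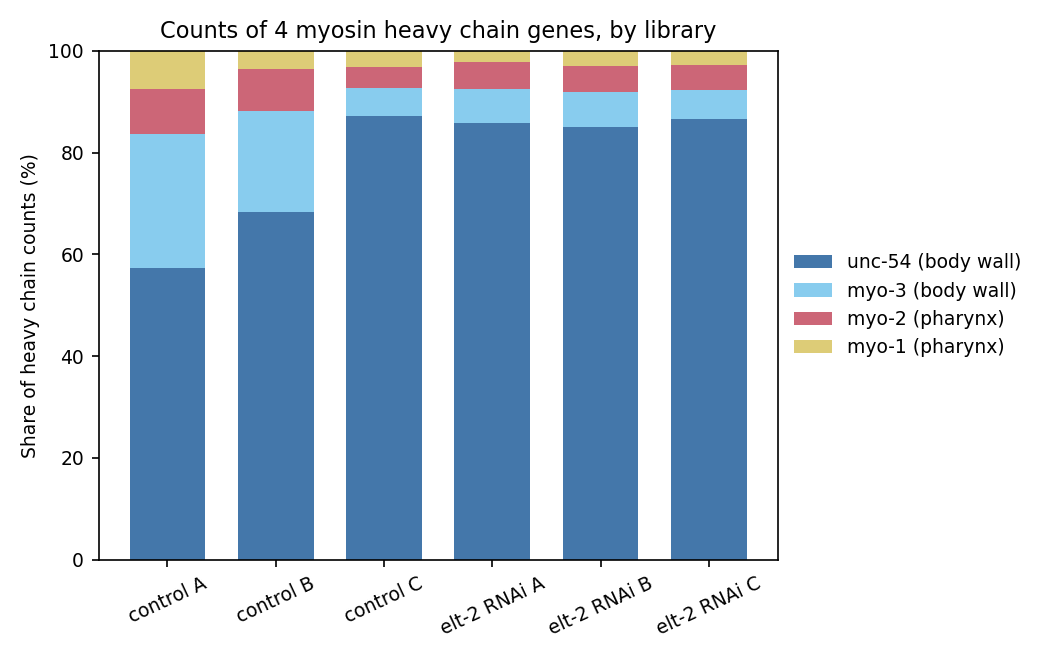
Share of the counts of the 4 myosin heavy chain genes taken by each gene, in percent, stacked for each library. unc-54 takes 57.3% and 68.3% in control A and B and at least 85.1% in the other 4 libraries, where myo-3 takes at most 6.80%.

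Paramyosin gave a different pattern again. unc-15 (F07A5.7, minus strand of chromosome I, 7376604 to 7383197) had 52.2, 52.9 and 254 CPM across the vector controls and 335, 117 and 95.02 CPM under the elt-2 RNAi label. It was thus highest in control C and elt-2 RNAi A, 1 library from each labelled group. The log2 fold change of 0.61 ± 0.79 (SE, adjusted p 0.588 in edgeR) was smaller than its error, and leaving out elt-2 RNAi A turned it to -0.13. Against unc-54, with which paramyosin shares the body wall thick filament, unc-15 had 0.789, 0.331 and 0.846 counts for each unc-54 count across the vector controls. Under the elt-2 RNAi label it had 0.744, 0.198 and 0.172. The range over the 6 libraries was 4.93-fold, and the groups overlapped.

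Among the light chains, mlc-2 (C36E6.5, minus strand of chromosome X, 17455792 to 17456586), a regulatory light chain, had 431, 1194 and 1526 CPM across the vector controls and 2295, 2858 and 3721 CPM under the elt-2 RNAi label. The groups did not overlap, control A was far below the rest, and the log2 fold change was 1.49 (SE 0.67, edgeR adjusted p 0.147). It was 0.19 with library size alone. The neighbouring gene mlc-1 (C36E6.3, plus strand of chromosome X, 17459210 to 17460778) encodes a nearly identical regulatory light chain. It had 30.0, 24.4 and 68.3 CPM in the controls and 39.2, 81.7 and 70.6 CPM in the libraries labelled elt-2 RNAi, with overlapping groups and a log2 fold change of 0.64 ± 0.52 (SE, adjusted p 0.385 in edgeR). Counts of mlc-2 were 14.3, 48.9 and 22.3 times those of mlc-1 across the vector controls, and 58.6, 34.96 and 52.7 times under the elt-2 RNAi label. This 4.09-fold range again joined libraries of both labels. Reads from such a close pair may be lost or split when only unique matches are kept. The annotated 3-prime end of mlc-2 also overlaps 77 exonic bases of C36E6.2, which had 146 to 321 counts in a library against 24600 to 64103 for mlc-2, and that of mlc-1 meets slc-17.1 by 1 base. Use of strand was not stated.

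The alkali light chain mlc-3 (F09F7.2, plus strand of chromosome III, 5565025 to 5567382) had 199, 423 and 323 CPM across the vector controls and 435, 685 and 670 CPM under the elt-2 RNAi label. elt-2 RNAi A lay only just above control B, and the log2 fold change was 0.92 (SE 0.52, edgeR adjusted p 0.222). All light chain counts together were 5.21 to 6.997 times all heavy chain counts. That was the steadiest of the ratios computed, with a 1.34-fold range over the libraries, while most of the light chain counts came from mlc-2.

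Of the thin filament genes, tropomyosin was the steadier. lev-11 (Y105E8B.1, minus strand of chromosome I, 14621169 to 14631094) had 103, 143 and 256 CPM across the vector controls and 196, 291 and 299 CPM under the elt-2 RNAi label. The groups overlapped, at a log2 fold change of 0.65 ± 0.51 (SE, adjusted p 0.369 in edgeR). The annotation lists 20 transcripts of lev-11, which 3-prime counts do not tell apart. unc-27 (ZK721.2, plus strand of chromosome X, 8789456 to 8790621), a body wall troponin I, had the widest range of the 10 in TMM-scaled CPM, 11.9-fold from lowest to highest library, although by the coefficient of variation unc-15 (77.3%) varied more than unc-27 (66.1%). It had 138, 325 and 1563 CPM in the controls and 1643, 944 and 997 CPM in the libraries labelled elt-2 RNAi. Like unc-15 it was highest in control C and elt-2 RNAi A, and its log2 fold change of 0.82 had an SE of 0.88 (edgeR adjusted p 0.510). Without control C the log2 fold changes of unc-27 and unc-15 were 2.47 and 1.90, and both were called (edgeR adjusted p 0.0558 and 0.0957), where 33.3% of all tested genes were called in either direction. The log2 fold change of unc-27 was 0.20 without control A, 0.41 without control B and 0.56 without elt-2 RNAi A (edgeR adjusted p 0.736 to 0.877). unc-27 had 1.34 and 2.27 counts for each lev-11 count in control A and B, 6.10 in control C and 8.39 in elt-2 RNAi A, and 3.25 and 3.34 in elt-2 RNAi B and C.

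**Figure D4:**
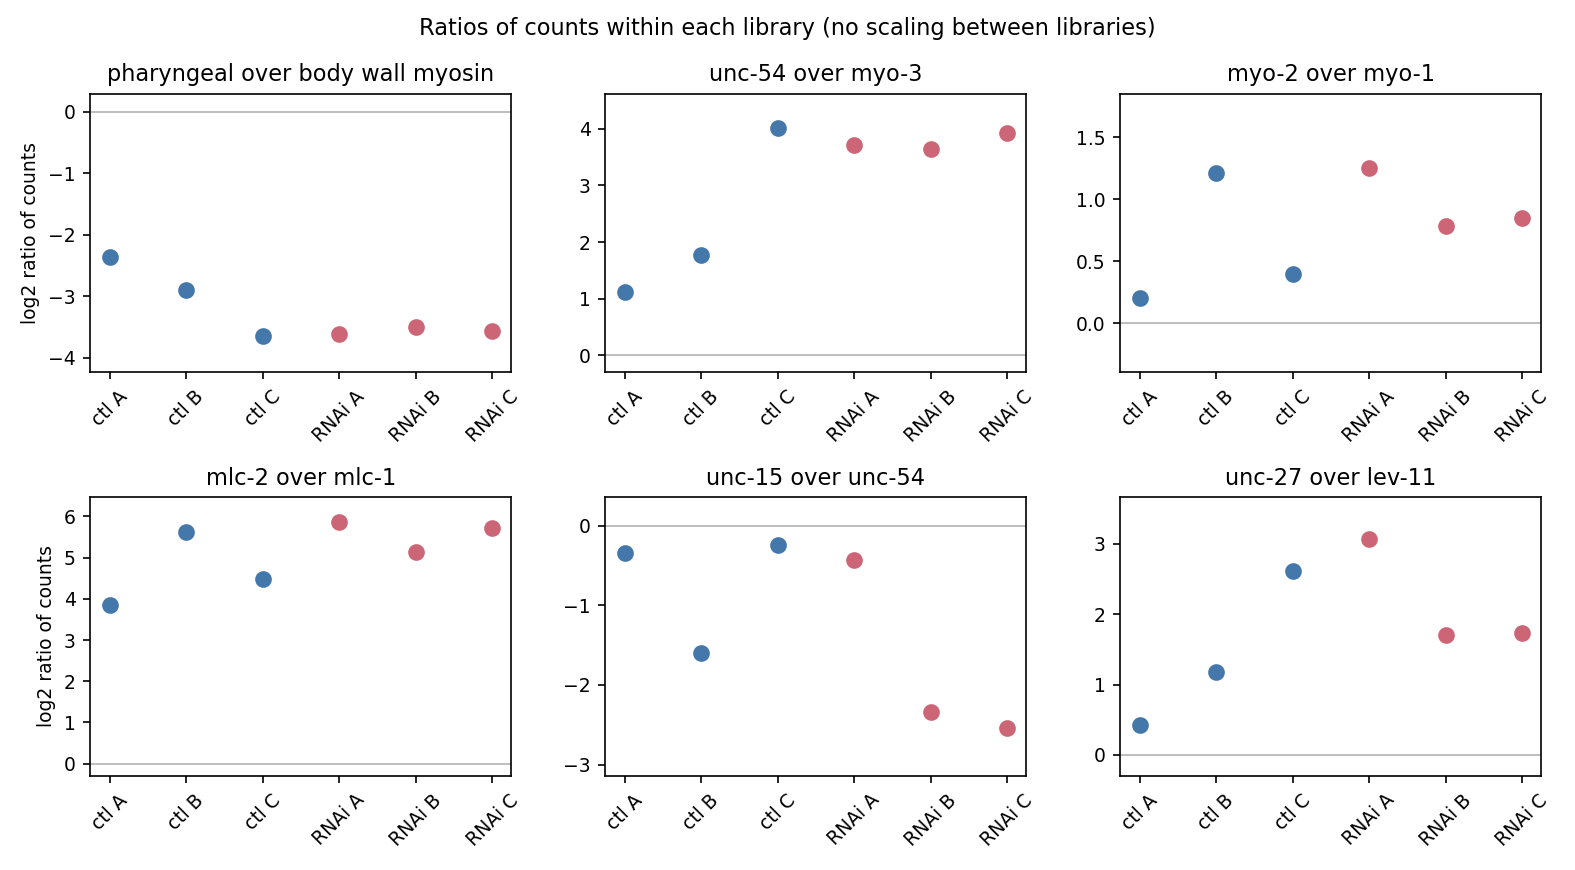
log2 ratios of counts between filament genes within each library (blue, labelled control; red, labelled elt-2 RNAi; grey line, equal counts), which need no scaling between libraries. Control A and B lie apart from the other 4 libraries for unc-54 over myo-3, whereas unc-15 over unc-54 ranges 4.93-fold across both labels.

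Over the 6 libraries the genes did not rise and fall as a single block. As a description, since the points share depth and library, Pearson's r of log2 CPM was highest for unc-54 with mlc-2 (0.980, n = 6 libraries) and myo-2 with mlc-3 (0.966). unc-15 went with unc-27 at 0.881. myo-3 stood apart, at 0.163 with unc-54 and -0.468 with unc-15. The 5 tested genes outside the set whose pattern was most like the mean of the 10 were R03D7.2, F54F12.1, E01G4.6, hsp-110 and rol-1, with r from 0.995 to 0.997 over 6 libraries. In all, 606 of 11464 other tested genes had r above 0.95, so the mean pattern was a common one in these scaled levels. Raw counts of hsp-110 were nearly flat, at 1439, 1286 and 1430 in the controls and 1381, 1437 and 1282 under the elt-2 RNAi label. Its scaled pattern therefore followed the library sizes and TMM factors. The part of scaling in the other matches was not tested.

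Other muscle genes were taken from 8 lists, of which 52 of 56 genes could be tested. edgeR called 4 lower and 4 higher, or 15.4% against 28.9% of all tested genes, and the median log2 fold change was 0.23. The troponins (6 tested) had 0 calls and 0 with an unadjusted p under 0.05, with a median of 1.22. DESeq2 called 2 of them higher, against 18.7% of all tested genes. The most abundant, pat-10, the body wall troponin C, had 294, 928 and 1516 CPM across the vector controls and 2295, 2212 and 3077 CPM under the elt-2 RNAi label. The groups did not overlap and the controls were widely spread, with a log2 fold change of 1.47 ± 0.71 (SE, adjusted p 0.171 in edgeR) that was called only in the fit without control C (adjusted p 0.0949) among the 6 that left out 1 library. Of the 6 troponins, 2 were called lower with library size alone, against 52.3% of all tested genes.

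The 4 muscle actins have near identical copies, so their counts are uncertain. Of these, 3 had an unadjusted p under 0.05 and the median was 1.23. edgeR called act-2 higher and DESeq2 called all 4 higher, against 13.0% and 18.7% of all tested genes. act-2 had 61.9, 227 and 145 CPM across the vector controls and 298, 591 and 432 CPM under the elt-2 RNAi label. Its log2 fold change was 1.60 (SE 0.61, edgeR adjusted p 0.0998). Among the 6 fits that left out 1 library the call held only without control B (adjusted p 0.0955), and in the other 5 adjusted p ran from 0.137 to 0.242. With library size alone the log2 fold change was 0.26 (adjusted p 0.650).

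Of the giant proteins and M-line genes (9 tested), edgeR called 3 higher and 0 lower, against 13.0% and 15.9% of all tested genes. unc-22 (twitchin, a giant kinase of the thick filament) had 12.1, 12.5 and 18.6 CPM in the controls and 39.1, 45.6 and 32.7 CPM in the libraries labelled elt-2 RNAi, a log2 fold change of 1.44 ± 0.37 (SE, adjusted p 0.0409 in edgeR). unc-89 (obscurin, an M-line protein) and ttn-1 (a titin-like protein) changed by 1.80 and 1.01 (edgeR adjusted p 0.0929 and 0.0928). With library size alone unc-22 and ttn-1 were at -0.09 and -0.57, above the median gene of -1.76. The call of unc-22 was lost without control A, elt-2 RNAi B or elt-2 RNAi C (edgeR adjusted p 0.105 to 0.142). That of unc-89 held only without control C (adjusted p 0.0347), and that of ttn-1 was lost whichever library was left out (adjusted p 0.105 to 0.199). The annotated 3-prime end of unc-22 overlaps other genes.

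Of 15 tested genes of dense bodies and attachment, edgeR called 2 lower and 0 higher, against 15.9% and 13.0% of all tested genes. Unadjusted p was under 0.05 for 5 of the 15, and the median was 0.07. pat-3, the beta integrin that anchors dense bodies and M-lines to the basement membrane, fell by 1.69 on the log2 scale (SE 0.46, edgeR adjusted p 0.0458). It had 22.8, 12.2 and 9.89 CPM across the vector controls and 2.91, 5.75 and 5.28 CPM under the elt-2 RNAi label. unc-97, a LIM protein of the same sites, fell by 1.58 (SE 0.55, edgeR adjusted p 0.0844), and the call was lost without control A (-0.96, adjusted p 0.204) or any library labelled elt-2 RNAi. The call of pat-3 was lost when elt-2 RNAi A, B or C was left out (adjusted p 0.109 to 0.170). DESeq2 called 3 of the list lower and 3 higher, against 16.0% and 18.7% of all tested genes.

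Of the thin filament binding genes (4 tested, 2 with an unadjusted p under 0.05, median -0.60), unc-94, the tropomodulin that caps the pointed end of actin, fell by 1.07 (SE 0.36, edgeR adjusted p 0.0768), and the call was lost without control A or any library labelled elt-2 RNAi (adjusted p 0.150 to 0.281). Of the excitation and calcium genes (8 tested), 0 were called by edgeR or DESeq2 and 0 had an unadjusted p under 0.05. The most abundant, sca-1, the calcium pump of the sarcoplasmic reticulum, was at 0.29 (SE 0.40, edgeR adjusted p 0.615), and -1.20 with library size alone, where it was called lower (adjusted p 0.0934). Of the 3 muscle transcription factors 2 were tested, and they went in opposite directions. hlh-1 was at 0.50 (SE 0.67, edgeR adjusted p 0.601), with overlapping groups. unc-120, related to serum response factor, fell by 2.74 (SE 0.67, edgeR adjusted p 0.0358). It had 8.63, 3.48 and 1.57 CPM across the vector controls and 0.872, 0.471 and 0.697 CPM under the elt-2 RNAi label. Its call was lost without elt-2 RNAi B or C (adjusted p 0.113 and 0.157). For these lists too, the shares of all tested genes called by edgeR were 15.9% lower and 13.0% higher.

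Further pharyngeal muscle genes (7 listed, 4 tested) had 0 calls by edgeR and 0 with an unadjusted p under 0.05. DESeq2 called 1 higher, against 18.7% of all tested genes. The pharyngeal troponin T tnt-4 had 11.2, 62.2 and 42.8 CPM across the vector controls and 82.8, 109 and 98.04 CPM under the elt-2 RNAi label (log2 fold change 1.32, SE 0.61, edgeR adjusted p 0.154). The pharyngeal troponins C and I, tnc-2 and tni-4, were at -0.08 and 0.11, and myo-5, a further myosin heavy chain, at 0.47, all with overlapping groups.

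**Figure D5:**
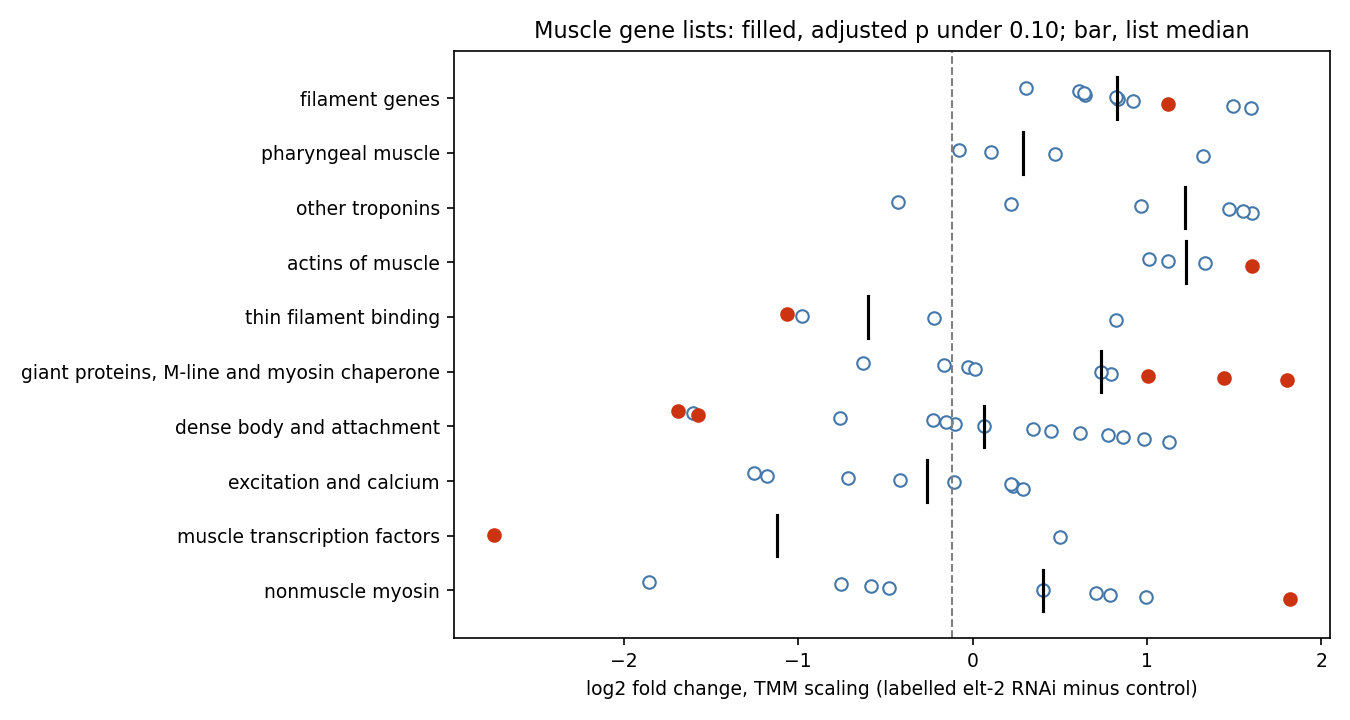
log2 fold change (labelled elt-2 RNAi minus control, TMM scaling) of each tested gene of the filament set and the other muscle and myosin lists; filled points have an edgeR adjusted p under 0.10, black bars mark list medians and the dashed line the median of all tested genes (-0.12). Calls lie on both sides, 4 lower and 4 higher among the 8 other muscle lists, and with library size alone all list medians except that of the troponins are below 0.

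Markers of other tissues moved across the same libraries. For the calls below, edgeR called 13.0% of all tested genes higher and 15.9% lower. The summed level of 7 intestinal markers was 307 to 810 CPM in the labelled controls and 1625 to 3672 CPM in the libraries labelled elt-2 RNAi, with 3 of 7 called higher and 1 lower. Most of that sum came from asp-1 and act-5, and the other 5 markers summed to 37.0 to 48.6 CPM and 32.7 to 90.2 CPM. The 5 germline markers summed to 159 to 486 CPM and 746 to 1022 CPM (1 called higher). The 7 neuronal markers summed to 33.4 to 51.0 CPM and 25.5 to 28.3 CPM (3 of 6 tested called lower), with rgef-1 at 0 in 3 libraries. The 6 epidermal markers summed to 24.999 to 74.1 CPM and 32.1 to 39.0 CPM (1 of 5 tested called lower). The 5 markers of pharyngeal gland and lining summed to 5.73 to 20.2 CPM and 18.8 to 64.1 CPM, with phat-1 at 0 in 5 of 6 libraries. In that list phat-4 was called higher and pha-4 lower, at log2 fold changes of 2.96 and -1.77 (edgeR adjusted p 0.0553 and 0.0815), and without phat-4 the sums were 2.42 to 14.2 CPM and 2.96 to 3.87 CPM. The part of tissue composition, stage or depth in the filament gene results was not tested.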

How the data were processed

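For 6 3SEQ libraries (3 labelled control, 3 labelled elt-2 RNAi) the authors deposited a table of unnormalized read counts by gene. Bowtie 0.12.7 is named in the submitters' processing notes, and the study used uniquely mapped reads. The counting program, genome build, annotation and use of strand are not given in the sources used here. Sequence names were paired with WBcel235 (Ensembl release 115) for 19081 of 19512 genes (97.8%), which supplied symbols, coordinates and lengths.

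Counts were filtered with filterByExpr, scaled with TMM and tested with edgeR 4.0.16 (R 4.3.3) by the two-sided quasi-likelihood test with group as the only term. Benjamini-Hochberg adjustment covered all 11474 tested genes, and an adjusted p under 0.10 was called, the study's false discovery rate. The study's rank product test was not run. Each SE was obtained from the fold change and the square root of its F statistic. log2 CPM used 0.5 added counts. Whether the 3 cultures of a group were grown independently rests on the series' description of biological triplicates.

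Named genes were the 10 filament genes, elt-2, up to 3 called genes of each muscle list (otherwise its most abundant tested gene), and the 5 genes closest to the mean pattern; other list genes are named as values chosen after seeing them. The filament genes and lists were chosen with earlier results of these data known. Other scalings tried were library size alone and a library size that ignored the top 3% of genes by abundance, and DESeq2 1.42.0 served as another tool. Other filters kept all genes with a count, or those with 10 or more counts throughout. Further fits used a replicate block, dropped each library, or dropped both letter B libraries, and further thresholds were an adjusted p under 0.05 and a 2-fold change. The test was tried on simulated counts, where it missed most changed genes at a dispersion near that of these libraries.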

Additional observations from a re-analysis of the deposited data

How the results depend on the processing

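Genes called numbered 3312, and 6441 with library size alone, 1219 with a replicate block, 1863 without both letter B libraries and 1587 at an adjusted p under 0.05. Leaving out each library in turn gave 465 to 4290. Filament genes called numbered 1, and 5 with DESeq2. They numbered 0 in edgeR with the top 3% of genes by abundance left out of the library size, no filter, a replicate block, both letter B libraries left out, or an adjusted p under 0.05, where 0, 3, 2, 1 and 3 had an unadjusted p under 0.05. Leaving out each library gave 0 to 3. With library size alone the log2 fold changes were -0.79 for myo-1, -0.38 for myo-2, -1.37 for myo-3, -0.49 for unc-15, -0.77 for lev-11, -0.83 for mlc-1, -0.56 for mlc-3, -0.13 for unc-27, -0.090 for unc-22, -0.57 for ttn-1 and -1.20 for sca-1. Ignoring the top 3% they were -0.21 for myo-3 and -0.21 for sca-1. Leaving out each library gave -0.13 to 1.90 for unc-15 and -0.0066 to 0.54 for sca-1. The pharyngeal to body wall difference was -0.13 from mean log2 counts, 0.41 from myo-1 over myo-3, and -0.93 to -0.29 leaving out each library. Apart from scaling and sample number, which act by construction, the cause was not tested. Pearson's r between same-letter libraries, on log2 CPM centred within each group, was -0.205, -0.578 and -0.114 for A, B and C. Same-letter libraries thus did not deviate together, and the letters were not used as pairs. The replicate block removed the call of myo-2 (adjusted p 0.167, edgeR). The ratio difference is -0.59 with or without it by arithmetic, since the design is balanced.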

Other observations

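Nonmuscle myosin II drives cell shape and cell division rather than the sarcomere. Of 9 nonmuscle myosin genes tested, not all of them myosin II, edgeR called 1 higher and 0 lower, against 13.0% and 15.9% of all tested genes. Unadjusted p was under 0.05 for 4 of the 9, and the median log2 fold change was 0.40. nmy-1, a nonmuscle myosin II heavy chain, had 17.2, 19.2 and 20.8 CPM across the vector controls and 82.9, 57.4 and 61.8 CPM under the elt-2 RNAi label. The controls were closely grouped and all lay below the libraries labelled elt-2 RNAi, at a log2 fold change of 1.82 ± 0.37 (SE; adjusted p 0.0227 in edgeR). Leaving out elt-2 RNAi C ended the call (adjusted p 0.106), and with library size alone the log2 fold change was 0.24 (adjusted p 0.755). With DESeq2 1 of the 9 was called lower and 3 higher, against 16.0% and 18.7% of all tested genes.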
